A study of Mus musculus with 7 samples.

Results

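The 3 ITA-LNP libraries are profiles of whole abdominal aorta, and they were chosen by their labels alone, as 3 of the 7 libraries in the series. They came from male Apoe-/- mice on a high-fat diet for 12 weeks, injected intravenously every week with 50 mg/kg of ITA-LNP. The other 4 libraries, labelled control-LNP, came from mice of the same genotype, sex and diet given a control LNP at the same dose and interval. They are used here only as background values. LNP usually stands for lipid nanoparticle and ITA, after the series title, for itaconate, a metabolite of activated macrophages. Apoe-/- mice lack the main ligand for hepatic uptake of remnant lipoproteins and develop atherosclerotic plaques, and all 7 libraries share this background. The labels do not say whether each library came from its own mouse. The spread between the libraries may therefore be partly technical. Reads over the Apoe gene stood at 1330, 1326 and 1643 CPM in ITA-LNP replicates 1, 2 and 3. A read from the end of a transcript does not show whether the part deleted in the null allele is present, so these reads check nothing about the genotype.

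The aortic wall has 3 coats. The intima is a sheet of endothelium, in which plaques form as macrophages take up lipid and become foam cells. The media consists of smooth muscle cells between elastic sheets, and its contractile genes are driven largely by serum response factor, which binds the CArG box, and its coactivator myocardin. In plaques, smooth muscle cells can lose contractile genes and take on matrix, cartilage or bone genes. The adventitia holds fibroblasts, nerves and small vessels, and it passes without a sharp border into fat. Transcripts of all these cells enter a library of the whole vessel, in which fewer cells of a type and less RNA per cell cannot be told apart.

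The ITA-LNP libraries held 6375381, 6785983 and 7281721 reads. By counting error alone, a gene without reads in one of them could still lie at up to 0.412 to 0.471 CPM. CPM means reads per 1000000 reads over all listed genes. Spread between these libraries went well beyond counting error, as described below, so a level of 0 may allow more than this limit. Because the libraries were made from the 3′ ends of transcripts, gene length does not enter CPM, and levels of different genes are set side by side on this scale. Of 32544 listed genes, 14808 had a read in at least 1 ITA-LNP library and 10140 had reads in all 3. The libraries labelled control-LNP stood apart from these in the markers of the tissue named in the labels. The 142 vessel wall genes summed to 2884 to 4692 CPM in them, with Acta2 at 71.9 to 139.5 CPM and Myh11 at 4.04 to 11.6 CPM. Blood cell genes summed to 37796 to 69694 CPM there. In the ITA-LNP libraries the wall markers Acta2, Myh11, Col3a1 and Dcn each stood above 1000 CPM in every library, matching the labelled tissue. Control-LNP values below are given as background, without a comparison of the groups.

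The most abundant genes belonged to the mitochondrial genome, the smooth muscle and the collagenous matrix. The 10 highest genes of each library took 10.4% ± 0.664 (SD, n = 3) of its reads, the 100 highest 30.04% ± 0.252, and 461 ± 15.1 genes held 50% of all reads. The first 4 ranks by mean level were mt-Atp6, mt-Co3, mt-Co2 and mt-Nd2, subunits of ATP synthase, cytochrome oxidase and complex I. The smooth muscle actin Acta2 followed at rank 5, the metallothionein Mt2 at rank 10, the fatty acid carrier Fabp4 at rank 12 and Col3a1 at rank 13. Of the 30 highest genes with established names, 9 were mitochondrial and 10 were on the vessel wall lists. Among the 100 highest genes of any name, 19 were vessel wall genes, 16 encoded cytosolic ribosomal proteins, 10 were mitochondrial, 5 were macrophage or foam cell genes and 4 belonged to the stress response. There were 2 blood cell genes and 1 adipose gene, 4 had predicted or clone names, and none was a nerve gene. Another 39 were on no list. Among them were housekeeping and cytoskeletal genes such as Tpt1, Eef1a1, Actb, Fth1 and Vim. Others were nearly absent from the control-LNP libraries. Igfbp7, Fmo2 and Postn had means of 3722, 1723 and 1440 CPM, and reached at most 24.6, 12.4 and 11.2 CPM there. The count of vessel wall genes is therefore one of list members only. The ranking was shared closely at the top: 9 of the 10, 80 of the 100 and 401 of the 500 highest genes were the same in all 3 libraries.

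**Figure D1:**
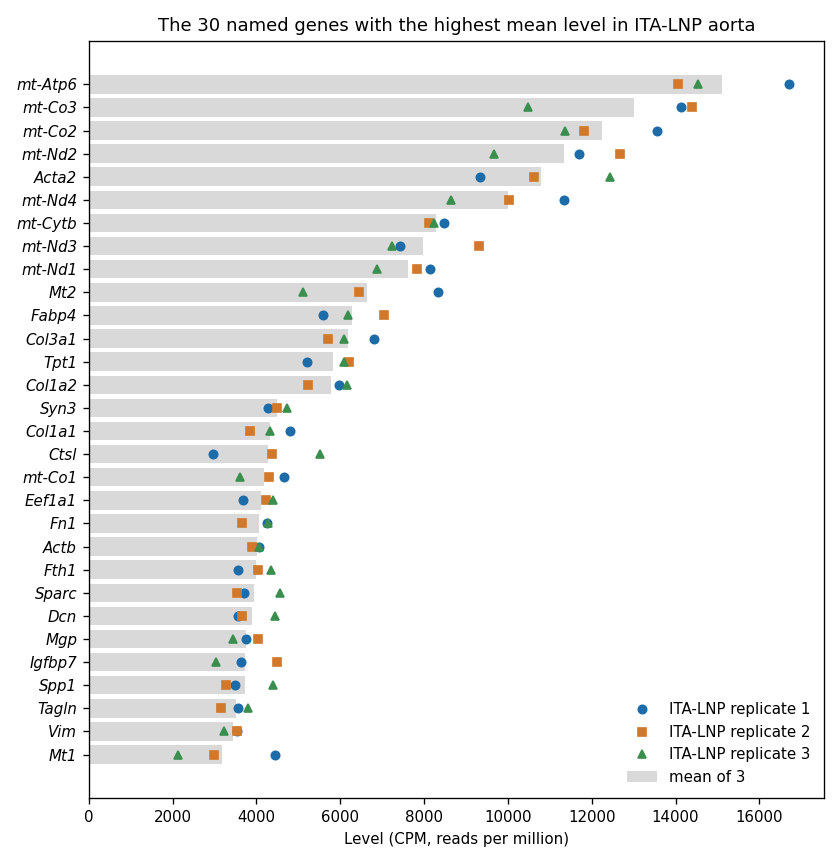
Level in CPM (linear axis from 0) of the 30 named genes with the highest mean over the 3 ITA-LNP libraries, with each library as a point and the mean as a bar. mt-Atp6 leads at a mean of 15107 CPM, Acta2 stands among the mitochondrial genes at 10802, and the points of Ctsl, Mt2 and Mt1 spread the most relative to their bars.

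Some abundant entries share their reads with others. Syn3, the gene of a synaptic vesicle protein, stood at 4281, 4489 and 4731 CPM. One of its exons overlaps the last exon of Timp3, a protease inhibitor bound to the matrix, on the opposite strand. Timp3 itself stood at 504.1, 483.9 and 361.0 CPM, and since the sources used here do not give the use of strand in counting, reads of the pair cannot be told apart. Gm29216 and Gm10222, pseudogenes on chromosome 1, stood at means of 6320 and 1654 CPM, and Gm20594 on chromosome 6 at 1948. Reads over near-identical copies of any gene, such as those of mitochondrial genes in the nucleus or of ribosomal protein genes, may have been divided by the counting. Rps27 and Rps27rt give an example: Rps27 was at 2517, 1265 and 1351 CPM and its near copy Rps27rt at 771.1, 2009 and 1293 CPM. The first was highest in replicate 1 and the second lowest there. The ends of Tagln, Igfbp7 and Ctsb overlap exons of Pcsk7, Polr2b and Fdft1 on the other strand in the same way, but these partners had means of only 13.1, 316 and 107.4 CPM.

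Vessel wall genes made up 8.73% ± 0.409 (SD, n = 3) of the reads, macrophage and foam cell genes 1.81% ± 0.377, adipose genes 0.707% ± 0.0697 and nerve genes 0.0637% ± 0.0121. The vessel wall class joins the contractile, structural matrix, proteoglycan, basement membrane, fibroblast, cartilage and bone, endothelial, lymphatic and mural cell lists. As sums over the lists, the wall genes came to 86013, 83936 and 91818 CPM in replicates 1, 2 and 3, against 14301, 18161 and 21840 CPM for macrophage and foam cell genes. Adipose genes summed to 6416, 7803 and 6992 CPM and nerve genes to 629.5, 519.9 and 762.3 CPM. With the full lists, the order of these 4 classes was the same in every library, and their ranges did not overlap. Lists of different length and different genes are not measures of cell number, so this order is one of transcripts. It also depended on the genes listed. Without genes of lysosomes and lipid that other cells use, macrophage and foam cell genes summed to 5808 ± 1356 CPM (SD, n = 3). That was below the full adipose sum of 7070 ± 696.5. The wall sum was not trimmed of shared genes in this way, and it includes Spp1, which macrophages also make. Without Fabp4 the adipose sum was 799.4 ± 32.9 CPM. In the control-LNP libraries the sums were 7763 to 11783 CPM for macrophage and foam cell genes, 286.7 to 652.7 for adipose and 176.2 to 233.6 for nerve. The 13 genes of the mitochondrial genome took 9.34% ± 0.807 of the reads and the 86 cytosolic ribosomal protein genes 5.36% ± 0.543.

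**Figure D2:**
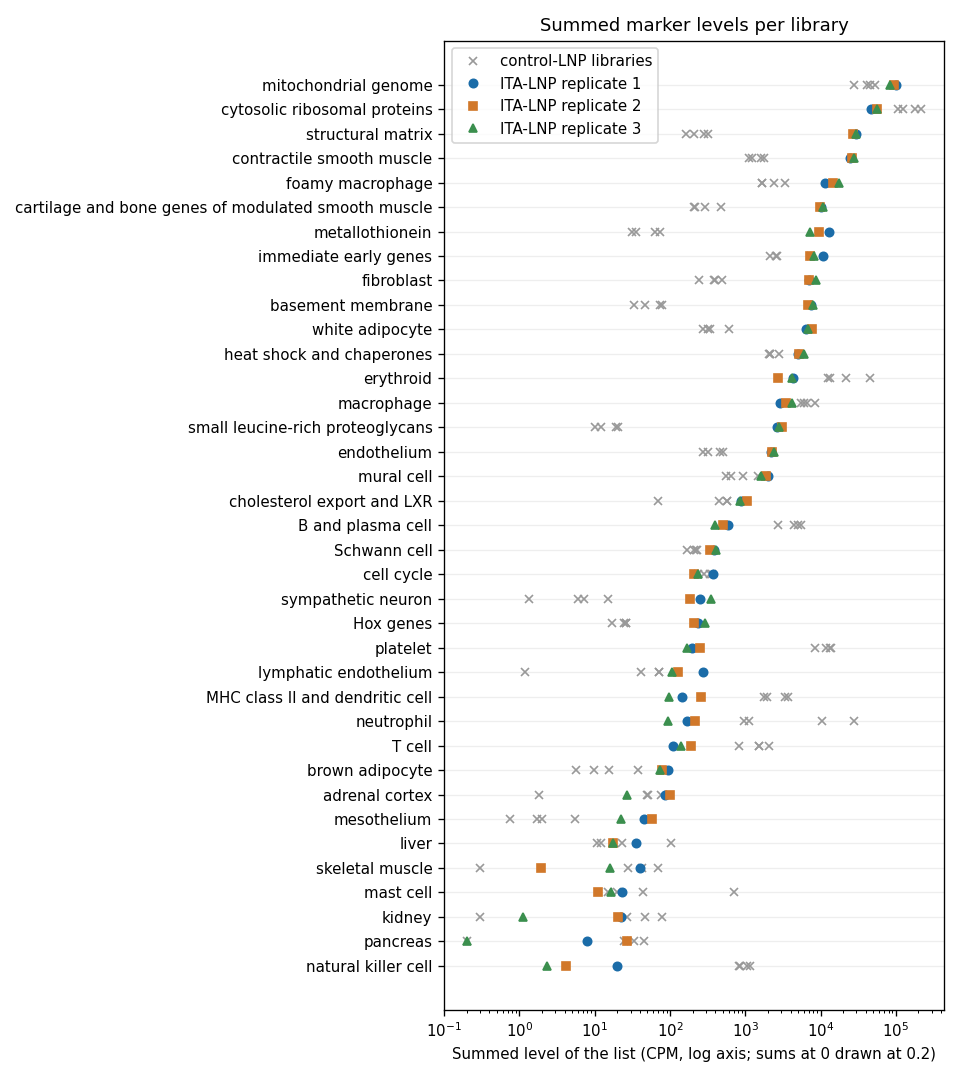
Summed level in CPM (log axis) of each marker list, with the 3 ITA-LNP libraries as coloured points and the 4 control-LNP libraries as crosses. Structural matrix and contractile smooth muscle lead the cell type lists in the ITA-LNP libraries at means of 28684 and 26204 CPM, and the natural killer cell list is lowest at a mean of 8.69 CPM.

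Contractile smooth muscle genes summed to 24308, 26313 and 27991 CPM, or 2.62% ± 0.184 of the reads. All but Casq2, a calcium-binding protein of the muscle calcium store, had reads, and 22 of the 24 were at a mean of at least 10 CPM. Acta2 (chromosome 19, 34241090 to 34255590 on mm10) alone carried 41.2% of the sum, with 9341, 10626 and 12440 CPM. It was lowest in replicate 1 and highest in replicate 3. Tagln, which encodes the actin-binding transgelin, stood at 3551, 3162 and 3796 CPM, and the actin and myosin regulator Cald1 at 2092, 2283 and 2166. Myh11 (chromosome 16, 14194535 to 14291372) encodes the heavy chain of smooth muscle myosin and was at 1709, 1583 and 1391 CPM, in the order opposite to that of Acta2. The ratio of Acta2 to Myh11 was therefore 5.46, 6.71 and 8.94, a wider spread than that of the whole list, whose highest library was 1.15 times the lowest. Cnn1, a calponin that tempers actomyosin, was at 1117, 1212 and 1588 CPM. The integrin subunit Itga8 was at 1217, 1304 and 1191 CPM. Lower members included the coactivator Myocd at 66.8, 30.7 and 20.3 CPM, the intermediate filament gene Des at 26.7, 45.5 and 78.3, and Pln, an inhibitor of the calcium pump, at 0.784, 15.0 and 15.5. In control-LNP libraries the list summed to 1111 to 1772 CPM.

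Promoters of this list are shown because the CArG box is the element through which serum response factor and myocardin are known to act. RefSeq promoters (build GRCm38.p6, 250 bases before to 50 after each gene's start) were found for 19 of the 24 genes. The CArG box, CC and GG around 6 bases that are A or T, was searched on both strands of these windows, also with 1 of the 6 replaced by G or C, a near match that includes the exact box. An exact box lay in 1 of 19 contractile promoters and a near match in 3 of 19 (15.8%), while 1.81% and 11.3% of the promoters of all 27025 genes held them. Of the 6 contractile genes named above, Acta2 had near matches, and Cald1, Cnn1 and Itga8 had none in this window, while Tagln and Myh11 were not matched. Near matches lay in 3 of 13 structural matrix promoters (23.1%) and, among the immediate early genes, which serum response factor also drives, in 6 of 16 (37.5%). Such a match describes letters and shows no binding, and a window without one says nothing about the factor. Stretches around the matches are given below for Acta2 and, chosen after the search, for Myl9 and Zfp36, with exact boxes and near matches in capitals, 5′ to 3′ on the strand of the gene. The Acta2 stretches lie at chr19:34255438-34255467 and chr19:34255388-34255417 on the minus strand, the Myl9 stretch at chr2:156775214-156775419 on the plus strand and the Zfp36 stretch at chr7:28379267-28379296 on the minus strand.
Acta2, first match: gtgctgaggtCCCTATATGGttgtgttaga
Acta2, second match: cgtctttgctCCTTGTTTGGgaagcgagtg
Myl9: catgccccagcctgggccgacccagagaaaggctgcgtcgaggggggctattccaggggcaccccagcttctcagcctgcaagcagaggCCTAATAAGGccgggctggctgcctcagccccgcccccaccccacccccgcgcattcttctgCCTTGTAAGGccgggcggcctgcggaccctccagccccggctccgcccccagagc
Zfp36: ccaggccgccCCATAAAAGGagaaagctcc
Positions are counted from the RefSeq start. GENCODE M21 starts these genes further upstream, by 217 bases in Acta2, 44 in Myl9 and 1025 in Zfp36, so that the Acta2 and Zfp36 stretches lie within its first exons and the Myl9 stretch ends before its first exon. In Acta2 the near matches begin 84 and 34 bases before the start. In Myl9, the gene of a myosin light chain at 604.7, 796.8 and 757.7 CPM, the exact box begins 161 and the near match 99 bases before it. In Zfp36, the gene of a protein that binds AU-rich mRNA, the exact box begins 58 bases before the start, and its level was 400.9, 233.7 and 322.7 CPM.

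The structural matrix was as abundant as the contractile apparatus. Its 22 genes summed to 29755, 26647 and 29649 CPM, and the ratio of this sum to that of the contractile list was 1.22, 1.01 and 1.06. Every gene of the list had reads in every library, at a mean of 47.4 CPM (Efemp1) or more. Col3a1 (chromosome 1, 45311538 to 45349706), the fibrillar collagen of distensible tissue, led with 6794, 5699 and 6087 CPM. The chains of type I collagen, Col1a2 and Col1a1, stood at 5962, 5220 and 6173 CPM and at 4795, 3838 and 4324 CPM. The ratio of Col1a2 to Col1a1 was 1.24, 1.36 and 1.43 and that of Col3a1 to Col1a1 1.42, 1.48 and 1.41. These 3 collagen genes and Fn1, the fibronectin gene at 4241, 3648 and 4277 CPM, were lowest in replicate 2. Eln, which encodes elastin, was at 2269, 2326 and 2505 CPM, and Fbln5, needed to assemble elastic fibres, at 1429, 1600 and 1738. Col5a2, a minor fibrillar collagen, was at 1469, 1632 and 1807 CPM. Eln, Fbln5 and Col5a2 were each lowest in replicate 1 and highest in replicate 3, by factors of 1.10 to 1.23. Control-LNP libraries held 162.5 to 323.4 CPM of the whole list.

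Around this core lay smaller matrix lists. The 14 basement membrane genes summed to 7506, 6838 and 7917 CPM, of which Sparc, a collagen-binding protein also made by many other cells, gave 53.0%. The type IV collagen genes Col4a1 and Col4a2 lie head to head on chromosome 8 and encode chains of a single molecule. Their levels were 1770, 1521 and 1462 CPM and 357.2, 250.4 and 192.0 CPM, a ratio of 4.96, 6.08 and 7.61. Col18a1, the source of endostatin, stood at 824.7, 877.7 and 969.7 CPM and the laminin chain gene Lamb2 at 128.8, 121.1 and 170.0. Small leucine-rich proteoglycans apart from decorin and lumican, which were counted as fibroblast genes, summed to 2602, 3055 and 2817 CPM. Bgn, the gene of biglycan, gave 44.6% of that, followed by Ogn, Prelp and Fmod at means of 672.3, 527.8 and 279.2 CPM. The control-LNP sums were 33.1 to 79.0 CPM for basement membrane and 10.2 to 20.3 for the proteoglycans.

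Fibroblast genes summed to 7084, 6937 and 8696 CPM, against 241.3 to 485.3 in control-LNP libraries. Dcn (chromosome 10, 97479609 to 97518143), whose product decorin trims collagen fibrils, was at 3566, 3656 and 4440 CPM and made up 51.3% of the sum. Gsn, an actin-severing protein, stood at 664.9, 908.0 and 1220 CPM, and Lum, the gene of lumican, at 782.1, 477.7 and 697.1. Ly6c1 and Ly6a, surface proteins that endothelium also carries, were at 453.3, 525.9 and 503.3 CPM and at 243.3, 345.7 and 456.6 CPM. Smoc2, a matrix protein related to Sparc, was at 406.4, 203.4 and 387.1 CPM. Dcn, Gsn and Ly6a were highest in replicate 3, Lum and Smoc2 in replicate 1. Pi16, a marker of adventitial fibroblasts, reached 60.6, 86.9 and 90.4 CPM, within the control-LNP range of 10.3 to 103.2.

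Genes of cartilage and bone, which modulated smooth muscle cells of plaques can express, came to 10267, 9873 and 10641 CPM, with a control-LNP range of 207.1 to 469.6. The sum had a CV of 3.74%, but without Mgp it was 6512 ± 682.1 CPM (SD, n = 3). Mgp, an inhibitor of calcification, was at 3760, 4041 and 3445 CPM. Spp1 (chromosome 5, 104435118 to 104441050), which encodes osteopontin and is also made by macrophages, was at 3478, 3275 and 4399. The chaperone gene Clu stood at 665.7, 733.0 and 799.1 CPM and Ibsp, bone sialoprotein, at 707.1, 603.9 and 464.6. Col2a1, the collagen of cartilage, was at 537.9, 459.0 and 701.8 CPM and Cytl1, a cytokine-like gene of cartilage, at 461.8, 362.2 and 325.7. Sox9, the transcription factor of chondrocytes, was at 99.5, 61.6 and 81.3 CPM and the cartilage proteoglycan gene Acan at 54.7, 57.9 and 62.4. Col10a1, the collagen of hypertrophic cartilage, was at 69.3, 84.0 and 11.5 CPM. No reads came from Bglap, the gene of osteocalcin, or from Matn1. All 20 genes except these 2 were detected in at least 1 library, and 15 in all 3.

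Endothelial genes were less abundant than smooth muscle genes. They summed to 2206, 2245 and 2381 CPM, and contractile genes were 11.0, 11.7 and 11.8 times that. The sum was steadier than its members, whose median CV was 25.6% over those with a mean of at least 10 CPM. Ptprb, a receptor phosphatase of endothelium, led with 454.6, 256.0 and 443.2 CPM, followed by the VEGF receptor gene Flt1 with 317.0, 424.7 and 314.8. Egfl7, a secreted endothelial factor, was at 174.1, 276.7 and 269.3 CPM and the adhesion molecule gene Pecam1 at 197.0, 197.8 and 284.1. Platelets and leukocytes also express Pecam1, which the control-LNP libraries held at 95.97 to 362.2 CPM, while Emcn was at 150.6, 163.4 and 249.9 CPM in ITA-LNP and at most 0.985 in control-LNP libraries. Tie1, a defining endothelial receptor gene, had a mean under 2 CPM. Lymphatic endothelial genes summed to 272.8, 129.5 and 105.5 CPM, led by the hyaluronan receptor gene Lyve1, which macrophages also express, at 96.9, 67.6 and 85.6. Ccl21a, a lymphatic chemokine, was at 80.3 and 43.6 CPM in replicates 1 and 2 and had no reads in replicate 3. Mural cell genes summed to 2011, 1898 and 1621 CPM, with the pericyte regulator Rgs5 at 944.7, 820.4 and 637.5 and the proteoglycan gene Cspg4 at 270.7, 279.3 and 255.2.

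The adipose share rested on 1 gene. Fabp4 (chromosome 3, 10204088 to 10208576) stood at 5589, 7040 and 6184 CPM and gave 88.7% of the adipose sum. Fabp4 is also expressed by macrophages and by capillary endothelium. Without it, the other 27 adipose genes summed to 799.4 CPM ± 32.9 (SD, n = 3). Lpl, which fat also expresses, was counted with the foamy macrophage genes, so this remainder depends on how the lists were drawn. Pnpla2, the main triglyceride lipase, was at 164.1, 150.3 and 283.4 CPM and the lipid droplet protein gene Plin4 at 142.7, 128.8 and 143.2. Aoc3, an amine oxidase that smooth muscle also carries, was at 54.7, 146.3 and 67.3 CPM, Acsl1, which activates fatty acids, at 39.2, 79.6 and 64.1, and Car3, a carbonic anhydrase of fat and muscle, at 95.5, 23.0 and 56.9. Several genes that define the adipocyte were low or at 0. Plin1, the coat protein of the droplet, and Retn, the gene of resistin, had means under 2 CPM, and Lep, the gene of leptin, and Adig had no reads in any of the 3 libraries. Cfd, the gene of adipsin, was at 28.7, 12.4 and 1.24 CPM, and Cidec, which fuses lipid droplets, was at 18.8 and 19.2 CPM in replicates 1 and 2 and had no reads in replicate 3. Brown adipocyte genes summed to 92.7, 79.0 and 73.1 CPM over 10 genes, and none reached a mean of 100 CPM.

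Nerve transcripts were present at a low level. Schwann cell genes summed to 380.5, 338.0 and 409.9 CPM, beside 169.1 to 228.3 in control-LNP libraries. Pmp22, a myelin protein that fibroblasts also express, gave 47.4% of the mean with 200.9, 161.8 and 171.8 CPM. Without it the ITA-LNP sum was 198.0 ± 34.8 CPM (SD, n = 3), while the control-LNP range above still includes Pmp22. Scn7a, a sodium channel gene of Schwann cells, was at 51.9, 24.3 and 48.5 CPM, and S100b, a calcium-binding protein of glia, at 14.7, 67.9 and 40.4. Sox10, the transcription factor of glia, had 2.51 CPM in replicate 1 and no reads in the other 2, and Gfra3 had no reads. Genes of sympathetic neurons, whose axons end in the adventitia while their cell bodies lie in ganglia, summed to 248.9, 181.8 and 352.4 CPM, against 1.35 to 15.2 in control-LNP libraries. The growth-associated gene Stmn2 led with 54.1, 48.6 and 104.2 CPM. The noradrenaline transporter gene Slc6a2 stood at 32.2, 41.9 and 23.6 CPM and Dbh, which makes noradrenaline, at 27.5, 19.6 and 23.2. Both were detected in every library. Chgb, a protein of secretory granules, was at 36.6 and 34.7 CPM in replicates 1 and 3 and had no reads in replicate 2, and the neuropeptide gene Npy was at 11.0, 14.7 and 45.2. Snap25, part of the vesicle fusion machinery, was at 35.6, 0.147 and 14.4 CPM. Chga, Stmn3 and Vip had no reads in any library.

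**Figure D3:**
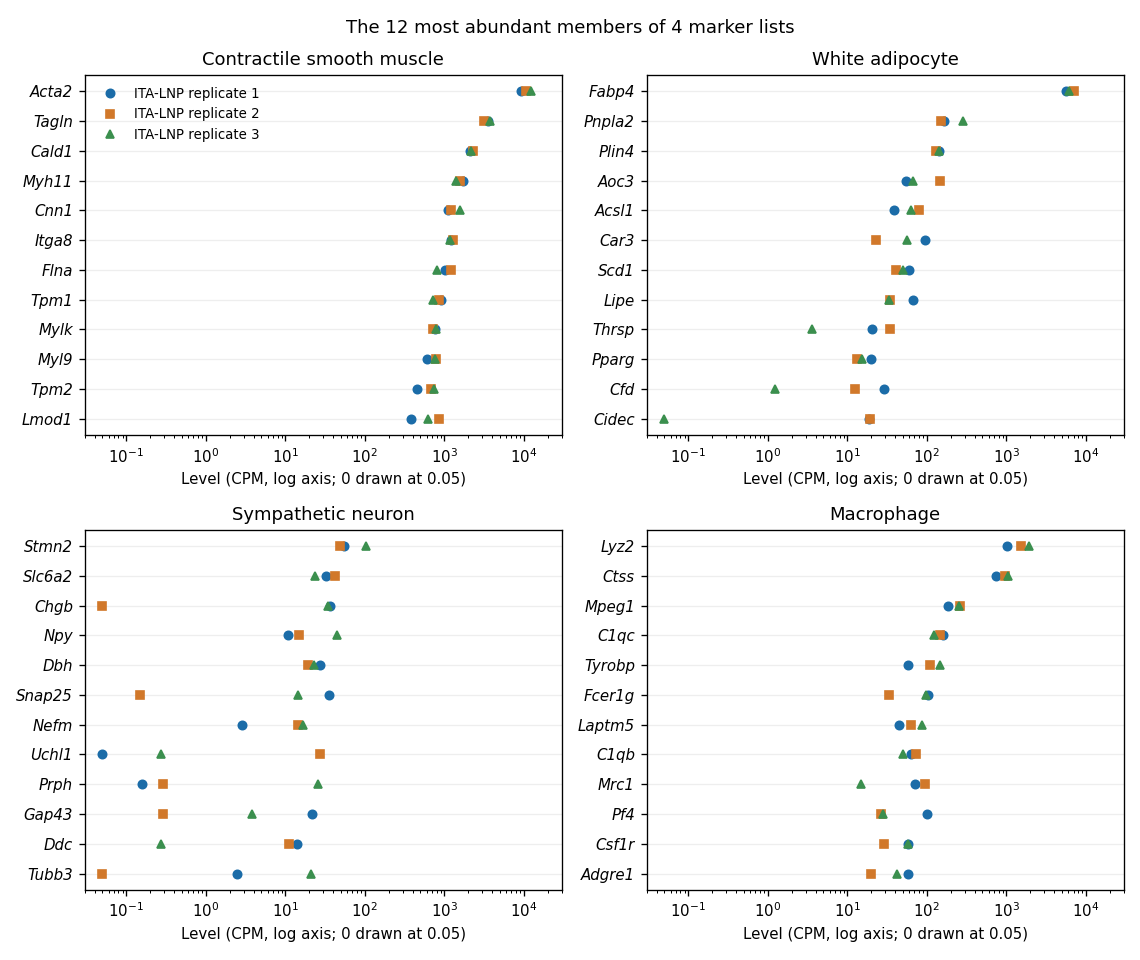
Level in CPM (log axis, 0 drawn at 0.05) of the 12 most abundant genes of 4 lists in the 3 ITA-LNP libraries. Contractile genes keep their points close together, Fabp4 stands alone at the top of the white adipocyte list, and several sympathetic neuron genes fall to 0 or below 1 CPM in a library.

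Macrophage and foam cell genes summed to 1.53 times as much in the highest library as in the lowest. The 24 general macrophage genes summed to 2864, 3479 and 4144 CPM, with a control-LNP range of 5548 to 8414. The control-LNP libraries held few wall and many blood cell transcripts, so these values do not compare the macrophages of the wall. Lyz2, a lysozyme of myeloid cells, led with 1015, 1531 and 1953 CPM, and Ctss, a cysteine protease, was at 737.2, 972.2 and 1049. Mpeg1, a pore-forming protein of macrophages, was at 185.4, 262.2 and 256.4 CPM, and the complement gene C1qc at 159.7, 146.9 and 124.1. The signalling adaptors Tyrobp and Fcer1g were at 57.6, 108.2 and 146.7 CPM and at 102.6, 33.5 and 98.5 CPM. Adgre1, the gene of the F4/80 antigen, was at 57.7, 20.04 and 42.3 CPM, Cd68, a lysosomal protein of macrophages, at 35.8, 24.9 and 43.8, and the mannose receptor gene Mrc1 at 72.0, 94.0 and 14.8. Without Lyz2 the sum of the list was 1996 ± 175.9 CPM, in place of 3496 ± 640.3. Timd4 and Folr2, genes of resident macrophages, had means of 0.596 and 0.445 CPM.

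The 18 foamy macrophage genes summed to 11437, 14682 and 17697 CPM, 3.99, 4.22 and 4.27 times the general list, with a control-LNP range of 1655 to 3369. Many of them handle lysosomes and lipid in other cells too. Ctsl, a lysosomal protease, stood at 2961, 4381 and 5519 CPM and Ctsb, another, at 2018, 2643 and 3011. Lpl, the lipoprotein lipase of fat and muscle as well as of macrophages, was at 979.7, 1275 and 1114 CPM. Gpnmb, a glycoprotein of lipid-laden macrophages, was at 644.7, 1009 and 1506 CPM, the scavenger receptor gene Cd36 at 755.4, 1027 and 911.7, and Lgals3, the gene of galectin-3, at 582.1, 565.6 and 1036. Mmp12, the macrophage elastase gene, was at 232.0, 339.2 and 376.0 CPM. Trem2, a receptor of foamy macrophages, was at 13.7, 52.3 and 20.7 CPM and Itgax, an integrin of dendritic cells and foamy macrophages, at 38.9, 0.147 and 18.1. Without the genes of lysosomes and lipid that other cells use, the sum over both lists was 5808 ± 1356 CPM, in place of 18101 ± 3770.

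Blood cell genes summed to 5607, 4108 and 5141 CPM, mostly haemoglobin. Erythroid genes came to 4362, 2687 and 4225 CPM, led by the beta globin gene Hbb-bs at 1581, 1200 and 1852. Hba-a2 and Hba-a1, near-identical alpha globin genes whose reads the counting could divide, were at means of 1138 and 619.5 CPM. All 4 globin genes were lowest in replicate 2: Hbb-bt stood at 445.8, 98.7 and 431.4 CPM. Platelet genes summed to 197.2, 247.9 and 168.6 CPM and neutrophil genes to 168.1, 211.9 and 93.9. Natural killer cell genes summed to 19.6, 4.13 and 2.34 CPM, a mean of 8.69 that fell to 3.23 without replicate 1, where Klre1 was at 17.1. Of the B cell list, 57.0% came from Ebf1, a transcription factor also of fat and mural cells, at 338.2, 168.3 and 337.3 CPM. Without Ebf1 the B cell list summed to 212.2 ± 137.7 CPM (SD, n = 3). T cell genes summed to 110.7, 189.1 and 139.9 CPM, and 11 of the 16 had reads in all 3 libraries. Pax5, a transcription factor of B cell identity, had a mean under 2 CPM, as did the T cell receptor genes Cd3e, Cd3g and Trac.

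Marker genes of organs next to the aorta had few reads. Over 69 genes of muscle, adrenal cortex, kidney, pancreas, liver and mesothelium the sums were 236.1, 225.8 and 84.2 CPM. The control-LNP range was 26.5 to 290.1 CPM. In the ITA-LNP libraries, 41 of these genes had no reads in any of the 3. Fdx1, an electron carrier of steroid synthesis, and Scarb1, a lipoprotein receptor, made up most of the adrenal sum at means of 49.5 and 20.8 CPM. The enzymes that define the adrenal cortex were at or near 0: Cyp11a1, Cyp21a1 and Hsd3b1 had no reads, and Star had a mean of 0.882. The kidney genes Umod and Slc34a1, the liver genes Alb and Apoa1, the pancreas genes Ins1, Ins2 and Prss2 and the muscle genes Myh4, Mylpf and Atp2a1 also had none. Cpb1, a pancreatic protease, was at 7.84 and 27.1 CPM in replicates 1 and 2, so that the pancreas list's mean of 11.7 became 3.92 without replicate 2. The skeletal muscle list's mean of 19.2 CPM became 8.99 without replicate 1, where it summed to 39.5. The mesothelial genes Msln and Upk1b had no reads, and Gpm6a, which neurons share, was at 16.2, 30.5 and 20.2 CPM.

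Stress response genes were abundant. The metallothionein genes Mt2 and Mt1, whose products bind zinc and copper, stood at 8344, 6438 and 5117 CPM and at 4436, 2977 and 2128 CPM. They are close paralogs, and their ratio was 1.88, 2.16 and 2.40. Immediate early genes, which cells switch on within minutes of a stimulus, summed to 10894, 7316 and 8076 CPM, against 2155 to 7544 in control-LNP libraries. Fos was at 1727, 753.5 and 1136 CPM, Jun at 1169, 857.1 and 1025, and Egr1 at 1215, 830.5 and 975.0. Klf4, which is also induced as smooth muscle cells lose contractile genes, was at 1077, 827.7 and 991.8 CPM. Heat shock and chaperone genes summed to 5091, 5142 and 5981 CPM, with Hspa5, the chaperone of the endoplasmic reticulum, at 1061, 1122 and 1769. Hsp90aa1, Hsp90ab1 and Hsp90b1, genes of HSP90 chaperones, had means of 772.4, 768.5 and 593.5 CPM.

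Abundant genes agreed closely between the libraries and less abundant ones did not. The median CV (SD divided by mean, n = 3) was 11.1% over the 39 genes with a mean of at least 2000 CPM, 26.6% over the 1045 genes from 100 to 200 CPM, 54.4% over the 3097 from 20 to 50 and 86.0% over the 2115 from 10 to 20. Counting error alone would give 0.599%, 3.32%, 6.85% and 10.1%. A chi-square test of each gene's reads against the depths compares these libraries, not conditions. It called 12152 of 12443 genes (97.7%) beyond counting error. The median of chi-square per degree of freedom, a quantity whose mean is 1 under counting error, lay between 52.2 and 76.4 in every class of level from 2 to 500 CPM. In control-LNP replicates 1, 3 and 4 this median was lower at low levels and higher at high ones, with 5.86 from 2 to 5 CPM, 26.1 from 100 to 200 and 140 from 500 to 1000, where the ITA-LNP libraries had 125. At 2000 CPM and over it was 1423 in those control-LNP libraries and 349 in ITA-LNP libraries. Likewise their median CV was 30.9% from 10 to 20 CPM but 24.3% at 2000 CPM and over. Control-LNP replicate 2 was left out here because it correlated with the other 3 at only 0.727 to 0.739 over all genes, on log2(CPM + 1). Those 3 correlated with each other at 0.970 to 0.975. That choice itself narrows the spread of the control-LNP libraries, and no ITA-LNP library was left out. The spreads of the 2 groups are therefore not like measures. Among ITA-LNP libraries, Pearson's r across genes was 0.878, 0.881 and 0.865 for replicates 1 and 2, 1 and 3, and 2 and 3 over all genes. It was 0.863, 0.871 and 0.850 over the 1838 genes with a mean of at least 100 CPM and 0.636, 0.639 and 0.568 over the 8790 with at least 10. Genes are not independent replicates, and these values are descriptions. The part of PCR copies in this spread was not tested.

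**Figure D4:**
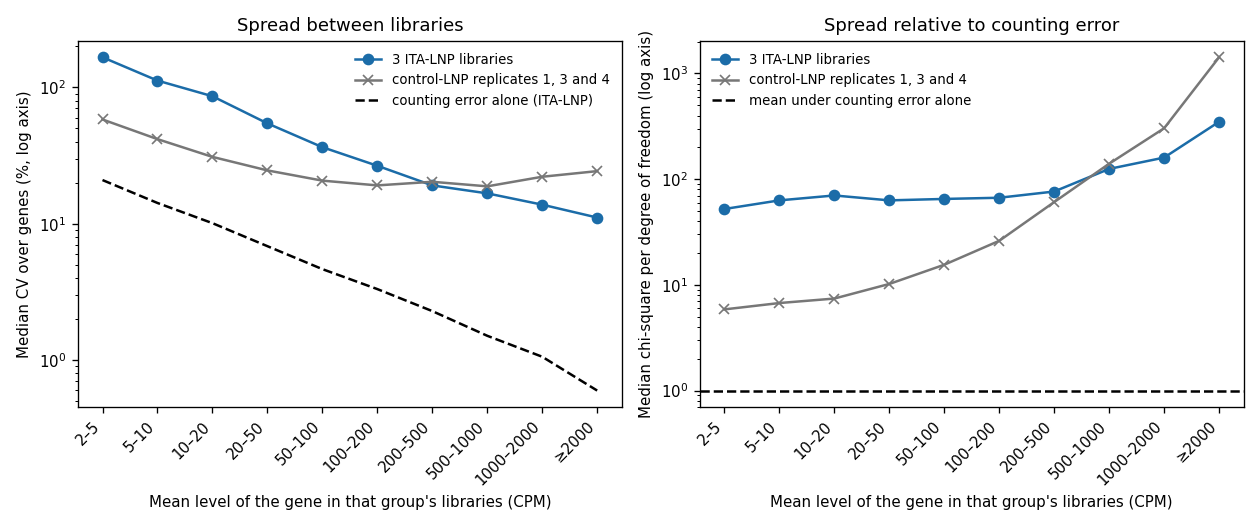
Left, median CV between libraries (%, log axis) for genes grouped by mean level in CPM, with the CV that counting error alone gives. Right, the median of chi-square per degree of freedom (log axis), which lies between 52.2 and 76.4 for the 3 ITA-LNP libraries below 500 CPM. The curve of control-LNP replicates 1, 3 and 4 starts lower, at 5.86, and crosses it above 500 CPM to end at 1423 against 349. Control-LNP replicate 2 was left out for its low correlation with them, a choice that itself narrows their spread.

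Absence from a library was mostly a feature of genes with a low mean. Among genes with a mean of 2 to 5 CPM, 1110 of 1598 had no reads in 1 or more libraries, as did 337 of 2115 from 10 to 20 CPM, 92 of 3097 from 20 to 50 and 5 of 1740 from 50 to 100. From 100 to 200 CPM, 2 of 1045 had none in a library. Of all 8790 genes with a mean of at least 10 CPM, 436 had none in 1 or more. In all, 12856, 12226 and 12260 genes had reads in replicates 1, 2 and 3. Thinned to 5077073 reads each, the libraries kept 12694, 11913 and 11886 genes. Replicate 1 thus held the most genes although it was the shallowest. Among the 1838 genes with a mean of at least 100 CPM, 864 (47.0%) had a highest library under 1.5 times the lowest. Of the contractile genes at that level 12 of 15 did, of structural matrix genes 12 of 18, of endothelial genes 2 of 7, of mitochondrial genes 12 of 12, of ribosomal protein genes 47 of 77, of macrophage and foam cell genes 9 of 19 and of immediate early genes 6 of 15. These counts were not matched for level. The median ratio was 1.67 from 100 to 200 CPM and 1.25 at 2000 CPM and over. Means of at least 1000 CPM were reached by 7 contractile, 7 structural matrix and 10 mitochondrial genes, and by no endothelial gene. The smallest CVs belonged to Top1, Tmed2, Postn, Toporsos, Capn2, Serpinf1, mt-Atp8, Mtdh, Btg2 and Cltc. Top1, DNA topoisomerase I, stood at 243.3, 241.5 and 241.7 CPM, and Postn, the matrix gene periostin, at 1446, 1430 and 1446. Only 28 genes at that level had a ratio above 4. Klf10, a transcription factor induced by TGF-beta, was at 20.7, 259.9 and 93.3 CPM, and Edn1, the gene of the vasoconstrictor endothelin-1, at 188.4, 174.8 and 29.8. Chil1, a chitinase-like protein of macrophages and chondrocytes, was at 161.7, 51.4 and 242.5 CPM. Ighm, the immunoglobulin heavy chain of B cells, was at 163.9, 186.0 and 33.7 CPM, and Rpl10-ps3, a pseudogene copy of a ribosomal protein gene, at 191.7, 0 and 203.9. The remaining 5 of the 10 widest were Nsfl1c, Rpl10a, Gclc, Phc3 and Fam46a, with ratios of 4.62 to 8.09.

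Replicates 1 and 3 differed in 2 gene groups, which were picked out once the values were known and carry no test. Of the 19 macrophage and foam cell genes with a mean of at least 100 CPM, 10 were lowest in replicate 1 and highest in replicate 3. That order held for 19.3% of all 1838 genes at that level. Relative to each gene's own mean, the medians over the 19 genes were 0.802, 1.02 and 1.18 in replicates 1, 2 and 3. Of the 15 immediate early genes at that level, 14 were highest in replicate 1, as were 30.3% of all genes, and their medians were 1.21, 0.843 and 0.893. Junb, at 141.0, 125.7 and 254.1 CPM, was the exception. Mt2 and Mt1 were also highest in replicate 1. With size factors in place of depth the counts were 12 of 19, beside 22.0% of all genes, and 12 of 15, beside 23.8%. At a mean of at least 50 CPM they were 11 of 26, beside 17.4%, and 16 of 19, beside 31.1%. At 200 CPM or more they were 9 of 15, beside 23.6%, and 12 of 12, beside 30.1%. Other properties moved with these groups: genes of the mitochondrial genome summed to 100033, 95862 and 84452 CPM and ribosomal protein genes to 47363, 56626 and 56903 CPM in replicates 1, 2 and 3, and replicate 1 was the shallowest library. Their part in the pattern was not tested.

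**Figure D5:**
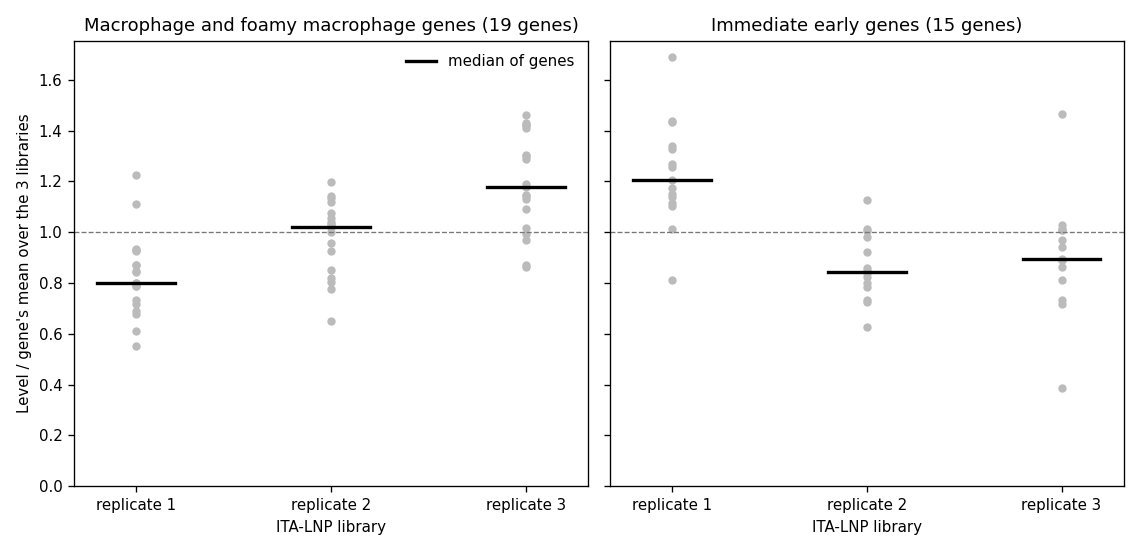
Level of each gene divided by its mean over the 3 ITA-LNP libraries, for 19 macrophage and foamy macrophage genes (left) and 15 immediate early genes (right) with a mean of at least 100 CPM. Grey points are genes and black bars their medians, which stand at 0.802, 1.02 and 1.18 on the left and at 1.21, 0.843 and 0.893 on the right.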

How the data were processed

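RNA of whole abdominal aorta was measured in 3 ITA-LNP and 4 control-LNP libraries, grouped by the sample titles, which write NP for LNP. Per the labels' protocols, 500 ng of total RNA went into QuantSeq 3′ mRNA libraries. Per the submitters' processing notes, mm10 was the genome build. Not given in the sources used here are aligner, counter, annotation and the handling of strand and molecular identifiers. The authors deposited values on a log10 scale for 32544 genes. Raising 10 to each value and subtracting 1 gave CPM that sum to 1000000 per library, and 100% of these were whole reads within a tolerance of 0.01, which gave the depths. Limits for genes without reads are 3 reads and cover counting error only. No count model was fitted.

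CPM were ranked by their mean over the 3 ITA-LNP libraries and summed over 35 lists of 495 genes, all in the table. The genes, lists and named genes were chosen with earlier results of these data known. Named were 6 wall markers, the 30 highest genes, the 4 highest of each list (6 for the main lists), the 10 with the widest and the 10 with the narrowest spread at a mean of at least 100 CPM, and 5 per library that stood out there; other genes were chosen after their values were seen, and a few named by this rule are not reported here. Predicted and clone names were left out of these but for those given as overlaps or copies. Reads of each gene with at least 30 in total were tested for homogeneity over the 3 libraries against depth by chi-square, with Benjamini-Hochberg adjustment and a threshold of 0.05. The script was tested on simulated data. Coordinates are from GENCODE M21, which matched 31400 names, and promoters from RefSeq. Alternatives were size factors by the median of ratios, totals without mitochondrial or ribosomal protein genes, lists without their highest member, other minimums, pseudocounts of 0.25 and 4 CPM, thinning, and leaving out each library. Python 3.11.15, pandas 2.3.3, numpy 2.4.6, scipy 1.17.1 and matplotlib 3.10.9 were used.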

Additional observations from a re-analysis of the deposited data

How the results depend on the processing

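No paired analysis was possible because the results describe 1 group and come from no test between groups. With size factors by the median of ratios, all 35 list sums moved by less than 1 SD. These factors were only 0.969 to 1.05 times the relative depths, so the means could hardly move. The SDs changed more, some up and some down. That of the contractile list went from 1844 to 2612 CPM and that of endothelium from 91.99 to 149.1. That of immediate early genes went from 1885 to 1516 CPM. With totals that leave out the mitochondrial genome, 9 of 35 moved by more, the wall sum to 96232 CPM and the adipose sum to 7799. With ribosomal protein genes left out too, 14 of 35 did, the wall sum standing at 102284 and the adipose sum at 8292, and the share of the 100 highest genes fell from 30.04% to 24.8%. Smaller totals raise every list by nearly the same factor. The counts of lists that moved therefore tell only which lists had small SDs relative to their means. Without its highest member, the wall sum was 76453 CPM, the adipose sum 799.4, the nerve sum 459.0 and the macrophage and foam cell sum 13814, and 26 of the 35 list sums moved by more than 1 SD. Leaving out lysosomal and lipid genes, an alternative added after the data were seen, gave 5808. At least 300 reads left 7712 genes to test, of which 7495 (97.2%) differed beyond counting error, and without any 1 library 85.0% to 87.7% did. The median CV over genes with a mean of at least 10 CPM was 45.6% and 28.3% over those with at least 50. Leaving out 1 library moved a list's mean by over 1.5 times only for natural killer cells, skeletal muscle and pancreas.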

Other observations

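Other gene groups of the ITA-LNP libraries were low. The 18 Hox genes, which keep the position of a cell along the body axis, summed to 238.9, 209.3 and 290.9 CPM in replicates 1, 2 and 3. Hoxa5 gave 50.1% of that, with 177.7, 90.0 and 102.3 CPM, while Hoxb7, Hoxb4 and Hoxc10 had means of 16.4, 15.9 and 15.8 and Hoxa6, Hoxc5 and Hoxd9 had no reads. Genes of cholesterol export and of the liver X receptor summed to 876.8, 1053 and 858.6 CPM. They were led by Mylip, which targets the LDL receptor for degradation, at 405.0, 408.8 and 221.4, and by the cholesterol exporter gene Abca1 at 163.1, 236.5 and 327.0. Abcg5 and Abcg8, sterol exporters of liver and gut, had no reads. Cell cycle genes summed to 372.7, 205.3 and 234.8 CPM, and Pcna, the sliding clamp of DNA replication, gave 61.3% of that. Top2a, a topoisomerase of dividing cells, was at 40.5, 3.54 and 11.5 CPM and the mitotic kinase gene Cdk1 at 16.3, 23.9 and 0.

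Some genes were present in a single ITA-LNP library at a high level. Of genes with at least 50 CPM in a library, 12, 10 and 24 stood at 10 or more times the other 2 libraries in replicates 1, 2 and 3, with a level of 0 taken as 3 reads. The 5 widest in replicate 1 were Csrnp1, Timm23, Tgtp1, Mtch1 and Bcl11b, and Csrnp1, a nuclear protein induced by AXIN1, had 878 reads there against 2 and 3. In replicate 2 they included Pcgf6, Dck, B4galt7 and Dpep1, and Pcgf6, a Polycomb subunit, had 433 reads against 0 and 1. In replicate 3 they were Clvs1, Rpl15-ps3, Acat3, Mina and Brix1, and Clvs1 had 710 reads and none in the other 2. An exon of Clvs1 overlaps the end of Asph on the opposite strand and one of Acat3 the end of Tcp1, so the gene of origin of those reads cannot be told apart. Timm23, part of the mitochondrial import machinery of every cell, had 424 reads in replicate 1 and none in replicates 2 and 3.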
